A study of Homo sapiens with 9 samples.

Results

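Esophageal cells in which SPINK7 had been silenced and which were then differentiated at an air-liquid interface (ALI) were compared with control cells of the same line kept as an undifferentiated monolayer. The comparison used 6 of the 9 libraries of the series, namely the 3 labelled as SPINK7-silenced ALI cultures and the 3 labelled as undifferentiated monolayer, chosen by those labels. The other 3 libraries, ALI cultures with a non-silencing control, served only as a reference level. All 9 came from EPC2, an esophageal epithelial line immortalized with telomerase reverse transcriptase, in keratinocyte serum-free medium that held 50 ug/mL of pituitary extract from cattle and, at 1 ng/mL, epidermal growth factor. The silenced ALI cells carried the SPINK7 silencing construct, while the monolayer cells and the ALI reference cells carried the non-silencing one. ALI cultures were grown on permeable supports in 0.09 mM calcium, received 1.8 mM calcium from day 2 and air from day 7, and were lysed on day 14. The deposited ALI tables are named for day 7 and carry other numbers than the sample labels, and days, groups and library numbers here follow the labels. No day of harvest or calcium level was stated for the monolayers alone. Silencing and air exposure therefore differ together between the silenced ALI cells and the monolayer. Calcium, support and time in culture may differ as well, and the shares of all these cannot be told apart. No second silenced population was described. Whether replicate libraries were grown as separate cultures is not stated. Every p-value below rests on a spread within groups of at most 3 libraries, which may be technical. In the main fit all 3 groups, ALI controls included, shared that spread.

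Stratified squamous epithelium renews itself from basal cells that divide on a basement membrane. Daughter cells leave that layer, exchange basal keratins for suprabasal ones, and build desmosomes and tight junctions. They then crosslink precursors such as involucrin, small proline-rich proteins (SPRR), late cornified envelope proteins (LCE) and loricrin under the plasma membrane with transglutaminases. Filaggrin-type proteins, lipid enzymes, and a balance of kallikrein proteases with their inhibitors complete the barrier in keratinizing epithelium. Human esophagus is normally a nonkeratinizing epithelium that relies on KRT4, KRT13, cornulin and SPRR proteins. SPINK7 itself is a Kazal-type inhibitor of serine proteases found in the upper layers of that tissue.

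Total counts ran from 8619938 to 14009746 in the silenced libraries and from 9034424 to 12989094 in the monolayers. FN1 was the most abundant gene in the 3 monolayers and KRT6A in the 3 silenced libraries. Squamous markers were high throughout, with KRT5 at 12707 to 13167 CPM (CPM, counts scaled to the size of each library) in the monolayers. Silenced library 2 stood apart from silenced libraries 1 and 3 on the second principal component of log2 CPM (14% of the variance), at 25.5 against -55 and -33.4. Control library 2 stood further apart, at 78.5 against -14.3 and -23.7, and every percent of control below is of a mean that includes it. Of the leukocyte, endothelial, fibroblast, melanocyte and columnar marker lists, only CD68, VWF, COL1A1 and PMEL were abundant enough to test. PTPRC and LUM had 0 counts in the 6 silenced and monolayer libraries. VWF, an endothelial gene, was at 0.354, 0 and 0.106 CPM in the monolayers, 2.24, 1.99 and 1.40 CPM in the silenced libraries and 8.84, 2.65 and 9.41 CPM in the ALI controls (log2 fold change over the monolayer 3.36, adjusted p = 0.00862, edgeR), and its part in the results was not tested. The columnar list summed to 0 CPM in 5 of the 6 silenced and monolayer libraries and to 0.0687 CPM in silenced library 2.

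Silenced cells still moved far from the monolayer state. Of 12806 genes tested with the quasi-likelihood F-test of edgeR, 2023 were higher (15.8%) and 2035 lower (15.9%) in the silenced cells at a Benjamini-Hochberg adjusted p under 0.05. These calls together made up 31.7% of genes, and those that also exceeded 2-fold made up 23.7%. The count of higher genes was 1284 without monolayer library 2 and 1302 without monolayer library 3. It was 2976 without control library 2 and 2698 in a fit of the 6 compared libraries alone. The count of lower genes was 1276 without silenced library 3. By a plainer measure, all 3 silenced libraries lay above all 3 monolayers for 28.0% of genes and below them for 27.7%.

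Set beside the ALI control level, most of these genes did not pass a test of difference. Between silenced and control ALI cultures 119 genes were called (0.929%), 90 lower (0.703%) and 29 higher (0.226%) in the silenced cells. The lower count was 25, 144 and 28 on leaving out silenced library 1, 2 or 3, and 43, 147 and 50 on leaving out control library 1, 2 or 3. The higher count was 3, 92 and 5 without silenced libraries 1, 2 and 3, 8 and 6 without control libraries 1 and 3, and 11 and 9 without monolayer libraries 2 and 3. The 2 comparisons share the silenced libraries, so their results are given side by side and not as independent evidence. Of the 2023 genes higher than in the monolayer, 59 were lower than in the ALI control (2.92%), 15 were higher than in it (0.741%) and 1949 were not called against it (96.3%). Of the 2035 lower genes, 15 were lower still than in the control (0.737%), 2 higher (0.0983%) and 2018 not called (99.2%). Of the 8748 genes not called against the monolayer, 16 were below the control (0.183%), 12 above it (0.137%) and 8720 neither (99.7%). For comparison, control ALI cultures gave 2601 genes higher than in the monolayer (20.3%) and 2589 lower (20.2%), or 40.5% together. Missing the threshold against the ALI control does not show that a level was the same. Fewer cells of a layer and less RNA per cell cannot be told apart in these bulk libraries. With 1 library left out at a time, the number of genes above the monolayer and below the control (59) ran from 21 to 99. The low value came without silenced library 1 or 3, and the high value without control library 2. Omitting control library 1 gave 33, control library 3 gave 36 and silenced library 2 gave 92. Other alternatives went beyond that range. The count was 170 by the DESeq2 Wald test and 262 when library 2 of each ALI group was dropped together.

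SPINK7 (chr5:147691990-147695481, hg19, plus strand) is given first because it was the silenced gene. It was at 0.212, 0.506 and 0.745 CPM in monolayers 1, 2 and 3, at 20.9, 38.6 and 32.7 CPM in the silenced libraries, and at 229, 261 and 225 CPM in the ALI controls. The 3 groups did not overlap. The silenced cells stood at 12.9% of the ALI control mean, yet above the monolayer (log2 fold change 6.03, SE 0.40, adjusted p = 5.74e-06, edgeR). Silenced cells thus held more SPINK7 transcript than undifferentiated cells that carried no SPINK7 construct.

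To show regulatory sequence beside the levels, 5 promoters are printed: those of 2 SPRR genes that came close to the ALI control mean, of FLG2, which stayed far below it, and of BST2 and IFI6, which exceeded it. Each is the 250 bases before the start in RefSeq (GRCh38.p14), read on the minus strand from 5′ to 3′. The coordinates are chr1:153150891-153151140 (SPRR2G), chr1:153057513-153057762 (SPRR2A), chr1:152360007-152360256 (FLG2), chr19:17405631-17405880 (BST2) and chr1:27672193-27672442 (IFI6). Capitals mark words searched on both strands: TGANTCA for AP-1, GGGNGNGG for KLF factors and, for the interferon-stimulated response element (ISRE), GAAA repeated after any 2 bases.
SPRR2G: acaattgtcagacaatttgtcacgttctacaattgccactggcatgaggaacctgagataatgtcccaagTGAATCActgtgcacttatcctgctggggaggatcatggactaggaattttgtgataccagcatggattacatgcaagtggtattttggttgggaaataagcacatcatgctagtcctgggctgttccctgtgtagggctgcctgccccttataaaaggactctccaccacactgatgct
SPRR2A: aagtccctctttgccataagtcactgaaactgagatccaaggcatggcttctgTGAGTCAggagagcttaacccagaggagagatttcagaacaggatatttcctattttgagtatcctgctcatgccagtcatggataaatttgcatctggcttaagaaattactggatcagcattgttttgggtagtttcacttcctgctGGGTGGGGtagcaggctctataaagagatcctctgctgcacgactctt
FLG2: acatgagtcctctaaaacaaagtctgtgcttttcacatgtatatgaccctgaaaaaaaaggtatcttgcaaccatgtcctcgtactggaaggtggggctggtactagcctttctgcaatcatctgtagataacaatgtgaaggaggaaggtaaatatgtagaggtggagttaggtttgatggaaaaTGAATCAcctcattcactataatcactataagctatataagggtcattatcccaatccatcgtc
BST2: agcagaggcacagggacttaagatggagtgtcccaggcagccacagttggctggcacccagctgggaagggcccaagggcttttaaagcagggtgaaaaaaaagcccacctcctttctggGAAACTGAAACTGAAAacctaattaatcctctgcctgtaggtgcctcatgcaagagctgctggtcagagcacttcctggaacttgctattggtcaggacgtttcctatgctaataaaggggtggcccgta
IFI6: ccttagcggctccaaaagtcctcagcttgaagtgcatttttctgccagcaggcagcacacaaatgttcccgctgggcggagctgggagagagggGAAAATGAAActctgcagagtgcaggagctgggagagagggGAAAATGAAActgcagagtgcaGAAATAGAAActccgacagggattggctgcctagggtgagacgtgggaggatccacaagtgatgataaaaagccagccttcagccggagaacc
In BST2 the 2 ISRE words overlap each other, and in IFI6 there are 3 separate ones.

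The AP-1 word was found in 6 of 8 SPRR promoters that matched by symbol (75%), in 6 of 7 filaggrin-type promoters (85.7%) and in 6.6% of all 27305 promoters in the table. Other lists that rose differed. The same word was in 5 of 9 envelope scaffold and transglutaminase promoters (55.6%). By contrast, 0 of 17 LCE, 0 of 24 lipid barrier and 0 of 12 squamous transcription factor promoters held it. Among promoters of the 59 genes between both levels, 46 matched and 10 held it (21.7%). The AP-1 word thus occurred both in SPRR genes near the ALI control level and in FLG2 far below it. The ISRE word was in 18 of 32 matched promoters of interferon-stimulated genes (56.2%), in 8 of 13 of the genes above both groups (61.5%), in 0 of 8 SPRR promoters and in 3.07% of all. A grainyhead-type word, AACCNGTT, was in 0 of 8 SPRR promoters and 1.48% of all, and the KLF word in 5 of 8 (62.5%) and 52.4%. A match is a description of letters and shows no binding.

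SPRR genes, which encode crosslinked bridges of the cornified envelope, had the highest median rise of the lists and stood close to the ALI control. All 10 were higher than in the monolayer, with a median log2 fold change of 10.66 (9.87 with the member that had 0 monolayer counts set at its lower bound), against 0.04 over all genes. The ALI control median against the same monolayers was 10.61. None was called lower than the ALI control, and the median member stood at 77.9% of it.

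SPRR2A was at 1.77, 1.72 and 1.92 CPM in the monolayers, at 1629, 3489 and 2686 CPM in the silenced libraries and at 2212, 2785 and 2319 CPM in the ALI controls. Its log2 fold change was 10.49 over the monolayer (SE 0.45, adjusted p = 1.11e-06, edgeR) and 0.09 over the ALI control (95% interval -0.57 to 0.75). The lowest silenced library lay below the ALI controls and the highest above them. SPRR2G had 3 counts over the monolayers and 63870 over the silenced libraries, a ratio of 21038 (exact Poisson counting interval 7198 to 102020, counting error only). SPRR1B was at 3.78 ± 1.13 CPM (SD, n = 3) in the monolayers, 2320 ± 592 in the silenced libraries and 3070 ± 410 in the ALI controls. SPRR3, an esophageal member, was at 5.70 ± 1.71, 1531 ± 904 and 1717 ± 337 CPM in the same order. The lowest members relative to the control were SPRR4 at 34.6%, SPRR2B at 37.1% and SPRR1A at 39.7% of its mean. SPRR2 genes are near-identical copies whose reads the counting may have split, so their single levels are uncertain.

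**Figure D1:**
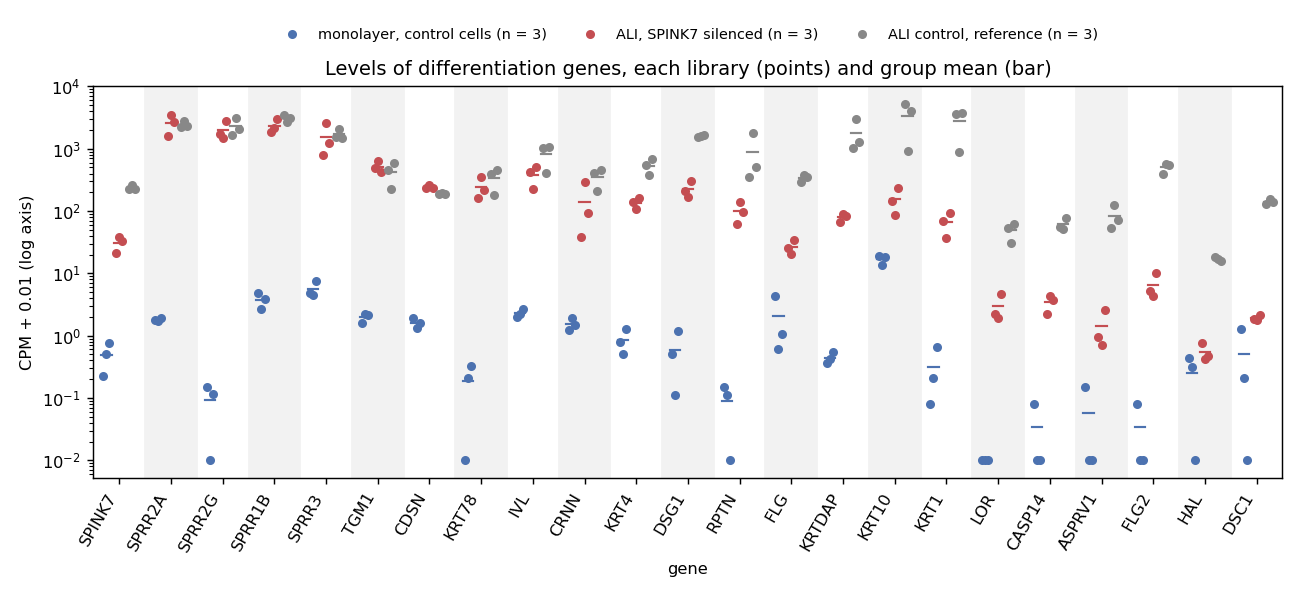
CPM + 0.01 on a log axis for SPINK7 and 22 differentiation genes, with 1 point per library and a bar at each group mean, for the monolayer, silenced ALI and control ALI groups (n = 3 each). SPRR2A and TGM1 of silenced cells sit at the control level, FLG2 and KRT1 lie between both groups, and HAL and DSC1 lie near the monolayer.

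Envelope scaffold genes and transglutaminases followed, with 13 of 13 higher than in the monolayer (median log2 fold change 7.39, or 6.69 with loricrin at its lower bound; ALI control median 8.51). Transglutaminase 1 (TGM1), the main membrane-bound crosslinking enzyme, was at 1.56, 2.23 and 2.13 CPM in the monolayers and 490, 630 and 430 CPM in the silenced libraries. The log2 fold change was 8.04 (adjusted p = 2.73e-06, edgeR), and the silenced mean was 122% of the ALI control mean of 425 CPM. TGM3 reached 22.9 ± 5.10 CPM (SD, n = 3) in the silenced cells, 81.6% of control. Periplakin (PPL), which anchors the envelope to keratins, rose from 8.35 ± 1.19 to 859 ± 61.0 CPM, with 814 ± 432 CPM in the ALI controls. Suprabasin (SBSN) rose by 9.69 and cornifelin (CNFN) by 8.38 on the log2 scale, to 79.5% and 57.6% of the ALI control mean.

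Involucrin (IVL), an early scaffold protein of the envelope, stood at 46.3% of the ALI control mean. It was at 426, 222 and 507 CPM in the silenced libraries and at 1023, 410 and 1061 CPM in the ALI controls, from 2.29 ± 0.343 CPM in the monolayers (SD, n = 3). Its log2 fold change over the monolayer was 7.39 (SE 0.53, adjusted p = 9.33e-06, edgeR), and its difference from the ALI control was -1.11 (95% interval -1.99 to -0.23, adjusted p = 0.331). The silenced and control libraries overlapped.

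Loricrin, TGM5 and KRTDAP were the envelope genes called lower than in the ALI control. Loricrin (LOR), a late and abundant envelope protein of keratinizing epithelium, had 0 counts in the 3 monolayers and 92 in the silenced libraries. It was therefore at least 30.3-fold higher against a floor of 3 counts over the group, yet at 6.05% of the ALI control mean of 48.8 CPM. Its silenced values were 2.24, 1.92 and 4.68 CPM. KRTDAP, a secreted marker of keratinocyte differentiation, rose from 0.430 ± 0.0917 to 79.7 ± 10.9 CPM, 4.49% of the ALI control mean of 1776 ± 1106 CPM (SD, n = 3). TGM5 had 1 count in the monolayers and 88 in the silenced libraries, a ratio of 87.0 (counting interval 15.2 to 3473), at 14.7% of control. These 3 genes stayed below the control in each of 13 alternative fits of that comparison, which changed the scaling or the test, added a replicate block or left out libraries.

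Filaggrin bundles keratin filaments and supplies natural moisturizing compounds. Genes of the filaggrin type were mostly above the monolayer and in part below the ALI control. Of 5 tested, 4 were higher than in the monolayer (15.8% of all genes were) and 3 of those were lower than in the ALI control, with the median member at 11.2% of control. The exception in the first count was hornerin (HRNR), at 4.37 ± 2.00 CPM against 1.18 ± 1.86 in the monolayers (SD, n = 3; adjusted p = 0.176, edgeR) and at 87.0% of control.

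Filaggrin 2 (FLG2, chr1:152321213-152332482, hg19, minus strand) was at 0.0708, 0 and 0 CPM in the monolayers, at 5.14, 4.40 and 10.3 CPM in the silenced libraries and at 399, 575 and 550 CPM in the ALI controls. The silenced cells had 207 counts against 1 in the monolayers, a ratio of 205 (counting interval 36.3 to 8118), and stood at 1.30% of the ALI control mean. The 3 groups did not overlap. Filaggrin (FLG) was at 2.02 ± 2.07, 26.8 ± 7.19 and 339 ± 46.3 CPM in monolayer, silenced and control libraries (SD, n = 3 each). It was above the monolayer by 3.64 on the log2 scale (adjusted p = 0.000885) and at 7.90% of control. Its call below the control was lost without silenced library 1 (adjusted p = 0.0779) or silenced library 3. Repetin (RPTN) had 3 counts in the monolayers and 3497 in the silenced libraries, a ratio of 1152 (394 to 5588), at 11.2% of control. That call did not hold when silenced library 1 or 3, control library 3 or any monolayer library was left out (adjusted p up to 0.192). Cornulin (CRNN), an esophageal member, varied widely, at 39.0, 294 and 92.9 CPM, against 404, 212 and 451 CPM in the ALI controls. It was above the monolayer by 6.54 (adjusted p = 0.000208) and its silenced and control libraries overlapped.

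Of 8 enzymes that process or break down filaggrin, 4 were higher than in the monolayer and 1 was lower. Caspase 14 (CASP14), a cornification protease, reached 2.24, 4.26 and 3.75 CPM, with 118 counts against 1 in the monolayers (ratio 117, counting interval 20.5 to 4644), and stood at 5.54% of control. ASPRV1, a retroviral-like aspartic protease that cleaves profilaggrin, had 42 counts against 2 (ratio 20.8, 5.40 to 177) and stood at 1.69% of control. Histidase (HAL), which turns free histidine into urocanic acid, was not called against the monolayer. It was at 0.425, 0.304 and 0 CPM in the monolayers, 0.747, 0.412 and 0.468 CPM in the silenced libraries and 17.1 ± 1.07 CPM in the ALI controls (SD, n = 3; adjusted p against the monolayer 0.249, edgeR). Only monolayer 1 overlapped the silenced range, and all 6 values lay far below the ALI controls. PADI3, a peptidylarginine deiminase, fell by 2.26 on the log2 scale (adjusted p = 0.000833), from 16.4, 16.2 and 15.3 CPM to 4.30, 2.95 and 2.69 CPM, within or below the ALI control range of 3.15 to 7.82 CPM. PADI1, a relative, rose by 4.44 instead.

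LCE genes split by subgroup. All 14 tested of 18 were higher than in the monolayer (median log2 fold change 8.75, or 6.36 with the 6 members at 0 monolayer counts set at their bounds; ALI control median 11.30), and 5 were lower than in the control. The median member stood at 14.4% of control. Of the 5 lower calls, that of LCE1C held in each of 13 alternative fits. Those of LCE1B, LCE1D, LCE1E and LCE2B were lost without silenced library 1 or 3 (adjusted p up to 0.128, edgeR). LCE3A, LCE3D and LCE3E stood at 115%, 68.5% and 61.2% of the ALI control mean, while the 11 other members lay between 6.26% (LCE1E) and 29.1% (LCE2D). LCE3D was at 300, 837 and 597 CPM in the silenced libraries, within the range of 416 to 1491 CPM in the ALI controls except for library 1. LCE1C was at 3.46, 5.02 and 4.68 CPM, all below the ALI controls at 30.0, 96.0 and 36.6 CPM and all above the monolayers at 0.708 to 0.850 CPM. LCE genes are near-identical copies within a subgroup, so levels of single members are uncertain.

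The chromosome 1 cluster that holds these families shows the pattern gene by gene. From S100A10 to S100A1 (chr1:151955386-153604513, hg19) the tables held 62 genes, of which 51 were tested. In the silenced cells 43 of them were higher than in the monolayer and 1 was lower (S100A3, by 2.68 on the log2 scale, adjusted p = 0.0017, edgeR), against 15.8% and 15.9% of all genes. The ALI control had 45 higher and 2 lower. Against the control 11 were lower and none higher, and levels ran from 1.30% (FLG2) to 134% of control (PRR9). The lower calls of FLG2, LOR, LCE1C and C1orf68 held in each of 13 alternative fits. Those of FLG, RPTN, KPRP, LCE1B, LCE1D, LCE1E and LCE2B were lost without silenced library 1 or 3. Within 50 to 200% of control lay 26 genes, among them 8 of the 11 tested SPRR genes of the region, LCE3A, LCE3D and LCE3E, CRCT1, S100A7, S100A9 and S100A12. The other 25 lay under 50%, among them FLG, LOR, KPRP and the tested LCE1 and LCE2 genes.

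**Figure D2:**
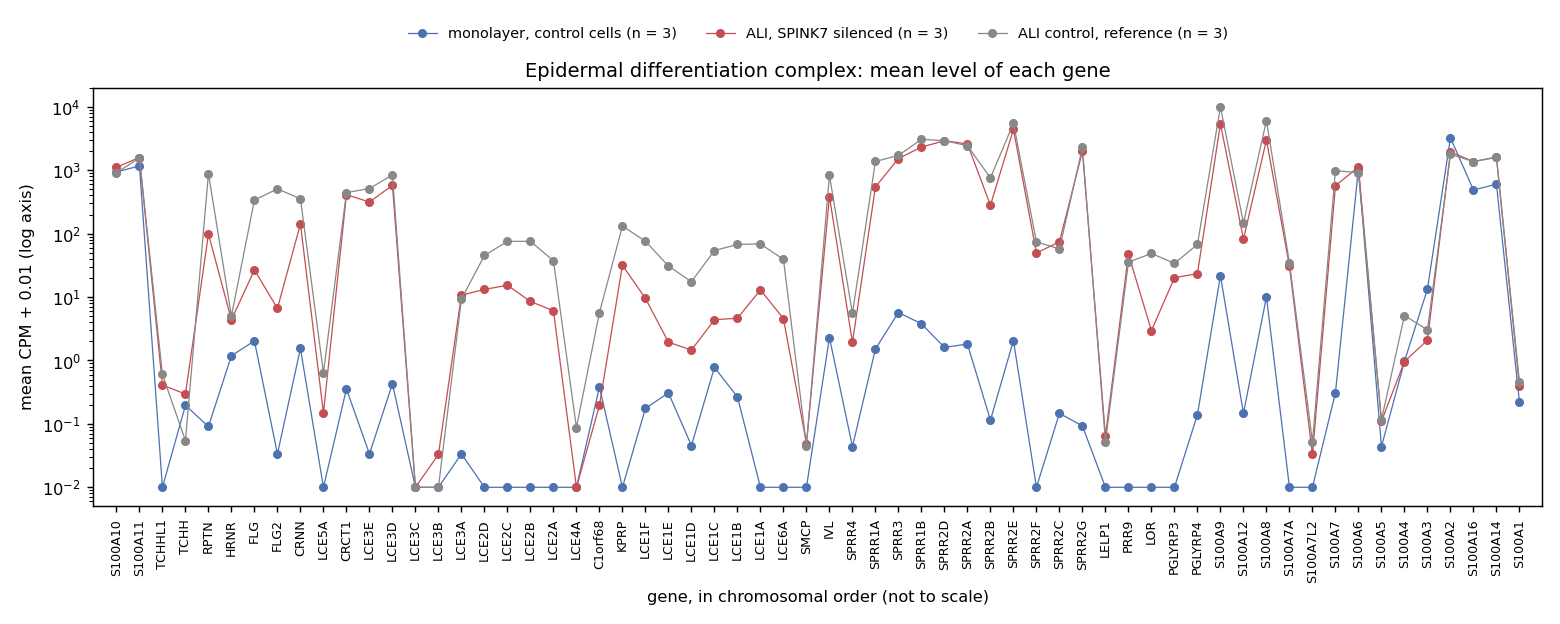
Mean CPM + 0.01 on a log axis for the 62 genes of the epidermal differentiation complex in chromosomal order (not to scale), one line per group of 3 libraries. Silenced and control lines lie close at SPRR2D, SPRR2A, S100A14 and S100A16 and part at S100A4, where the silenced line meets the monolayer, and over FLG, FLG2, the LCE1 and LCE2 genes and LOR, where the silenced line lies between the control and the monolayer.

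Suprabasal keratins were switched on, unevenly. All 9 tested were higher than in the monolayer (median log2 fold change 7.85, or 7.31 with KRT2 at its lower bound; ALI control median 9.29), and 3 were lower than in the control. KRT78, an esophageal suprabasal keratin, rose from 0.174 ± 0.162 to 243 ± 96.2 CPM (SD, n = 3) and stood at 70.6% of control. KRT13, which pairs with KRT4 in the esophagus, was at 44.1, 24.3 and 49.0 CPM in the silenced libraries and 71.0, 22.7 and 83.4 CPM in the ALI controls. Its log2 fold change over the monolayer was 6.51 (adjusted p = 6e-05, edgeR), and silenced and control libraries overlapped. KRT4 was at 139, 107 and 161 CPM, all below the ALI controls at 555, 379 and 676 CPM, or 25.3% of their mean. KRT4 was no longer called below the control when control library 1 or 3, or silenced library 1 or 3, was left out (adjusted p up to 0.0832).

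The epidermal pair KRT1 and KRT10 showed the widest gap to the control among keratins. KRT1 was at 0.0708, 0.202 and 0.639 CPM in the monolayers, 68.8, 37.0 and 94.7 CPM in the silenced libraries and 3618, 888 and 3814 CPM in the ALI controls. The groups did not overlap, and the silenced mean was 2.41% of control. Its log2 fold change over the monolayer was 7.85 (SE 0.86, adjusted p = 0.000121, edgeR). KRT10 began from 16.9 ± 2.86 CPM and rose by 3.19 (adjusted p = 0.00313) to 154 ± 72.2 CPM, 4.56% of the ALI control mean of 3386 ± 2222 CPM. Its call below the control was lost without silenced library 1 or 3 (adjusted p up to 0.078). KRT24 was the member furthest above the control mean, at 423% of it, a difference that was not called (adjusted p = 0.0941).

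Basal and stress keratins stood near the ALI control level. Of 9, 8 were higher than in the monolayer, none was lower than in the control, and the median member stood at 104% of it. KRT16, a keratin of activated and wounded epithelium, rose from 130 ± 104 to 9797 ± 1004 CPM (SD, n = 3; log2 fold change 6.23, adjusted p = 6.49e-05, edgeR). KRT6A rose by 1.99 to 34250, 20426 and 32273 CPM, and silenced library 2 was the lowest of the 3. KRT5, the basal partner keratin, did not pass (log2 fold change 0.66, adjusted p = 0.267), and KRT14 passed narrowly (1.38, adjusted p = 0.033). The KRT14 call was lost without monolayer library 1, 2 or 3 or silenced library 1 or 3 (adjusted p 0.095 to 0.106). KRT6 and KRT16 genes share reads with near-identical copies. The simple keratins KRT8 and KRT19 were lower than in the monolayer, by 1.46 and 1.26, and KRT18 was not called (log2 fold change 0.22). In silenced cells they stood at 276% and 258% of the ALI control mean, neither called. KRT8 lost its call against the monolayer without silenced library 3 (adjusted p = 0.0651), and KRT19 without any single library of the 2 groups except silenced library 1 (0.0655 to 0.117).

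**Figure D3:**
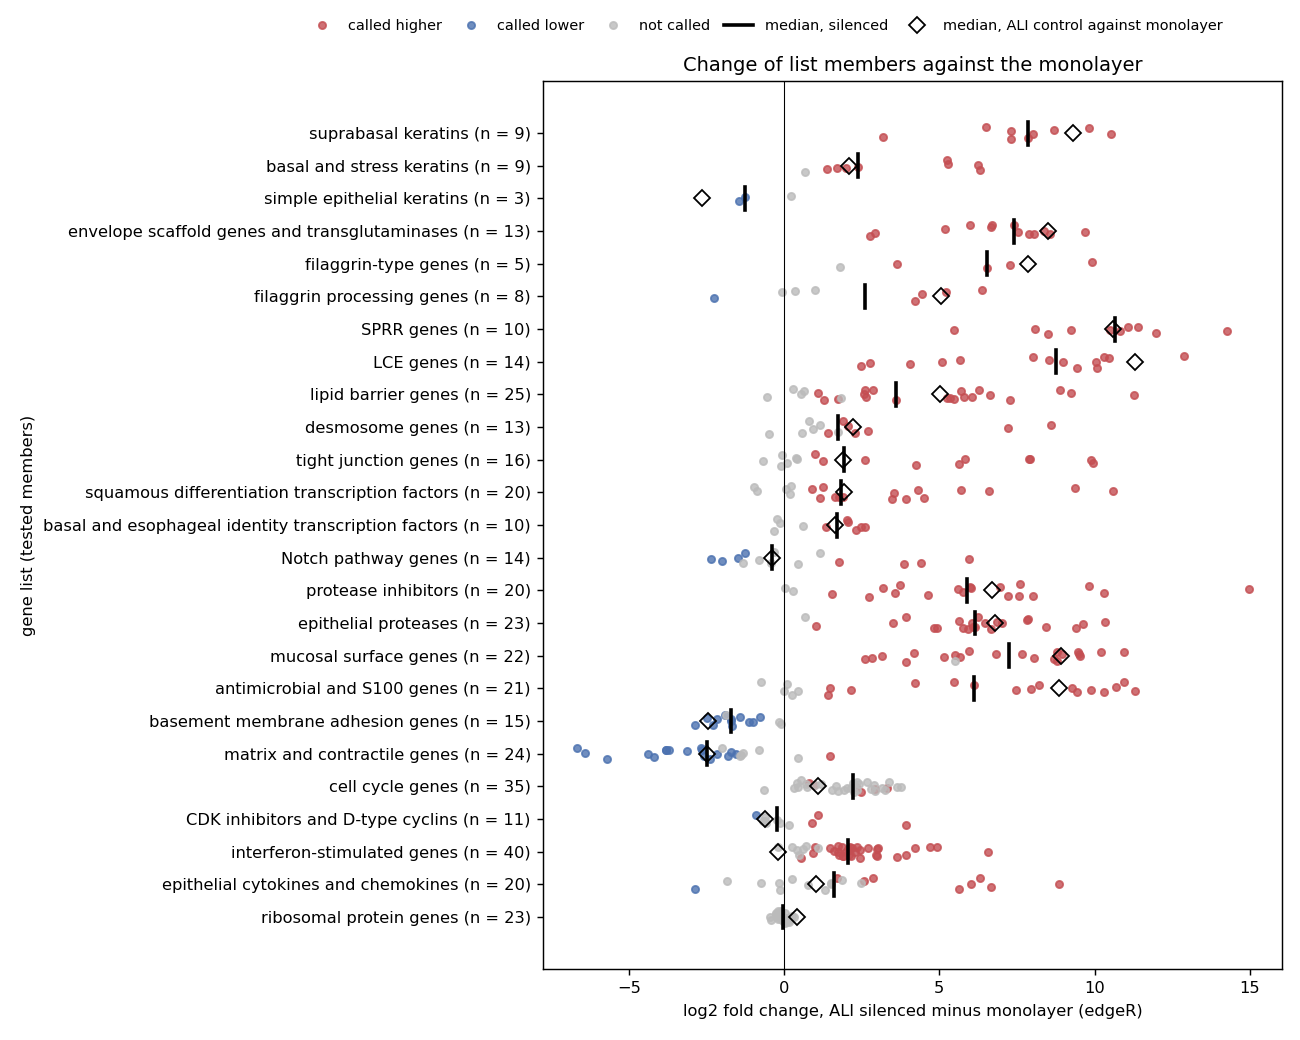
Log2 fold change of silenced ALI cells minus monolayer for every tested member of 25 gene lists, as points coloured by call, with the list median (bar) and the median of control ALI cells minus the same monolayers (diamond). Bar and diamond lie together for SPRR genes at 10.66 and 10.61 and lie apart for LCE genes (8.75 and 11.30) and interferon-stimulated genes (2.06 and -0.21).

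Of 25 tested lipid barrier genes, which make and process the ceramides of the outer layers, 20 were higher than in the monolayer and none lower. The median log2 fold change was 3.59 (2.86 with 3 members at their bounds), against 5.01 in the ALI control, and the median member stood at 49.6% of it. Ceramide synthase CERS3 rose from 21.9 ± 6.27 to 134 ± 47.4 CPM (SD, n = 3), 61.5% of control, and the very long chain elongase ELOVL4 rose to 67.9%. SULT2B1, which makes cholesterol sulfate, had 1 count in the monolayers and 3429 in the silenced libraries and stood at 85.4% of control. The lipid transporter ABCA12 rose by 3.59 on the log2 scale to 55.7%.

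Of the lipid genes above the monolayer, 4 were called below the control, SDR9C7, CYP4F22, ACER1 and SPTLC3. SDR9C7, a dehydrogenase of the linoleate-ceramide branch, reached 7.14 ± 2.71 CPM from 2 monolayer counts, 12.3% of control. CYP4F22, which hydroxylates very long chain fatty acids, reached 16.6%, and the ceramidase ACER1 11.2%, with silenced values of 1.59, 1.44 and 2.69 CPM against 0 counts in the monolayers (at least 20.1-fold). The call of CYP4F22 was lost without any single library except control library 2 (adjusted p up to 0.161), and that of ACER1 when silenced library 1, or control library 1 or 3, was left out (up to 0.078). SPTLC3, a subunit of serine palmitoyltransferase, stayed called on omitting control library 2, monolayer library 1 or monolayer library 2, but not on omitting any other one (up to 0.182). The lipoxygenase ALOX12B reached 22.3%, not called against the control (adjusted p = 0.0949, edgeR). PLA2G4D, a phospholipase, was called below the control (9.72%) but not above the monolayer, at 0.561, 0.824 and 0.937 CPM against 0.212, 0.101 and 0.319 CPM (adjusted p = 0.0933). The PLA2G4D groups did not overlap, and its call below the control was lost without any single library except control library 2 (adjusted p up to 0.17).

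Desmosome genes gave 7 of 13 tested higher than in the monolayer and none lower (median log2 fold change 1.74, ALI control 2.23). Plakophilin 1 (PKP1) rose by 2.69 and desmoplakin (DSP) by 1.43, to 109% and 92.4% of control. DSG3, the basal and lower spinous cadherin, rose from 571 ± 177 to 2403 ± 593 CPM (SD, n = 3), against 2918 ± 331 in the ALI controls. Corneodesmosin (CDSN), an adhesion protein of the outermost layers, was at 1.91, 1.32 and 1.60 CPM in the monolayers and 232, 264 and 235 CPM in the silenced libraries. Libraries within a group lay close together. The log2 fold change was 7.22 (SE 0.24, adjusted p = 3.84e-07, edgeR) and the silenced mean 129% of control.

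The cadherins of the upper layers were different. DSG1 rose (log2 fold change 8.61, adjusted p = 5.27e-06, edgeR) to 212, 171 and 304 CPM, but the ALI controls were at 1550, 1614 and 1648 CPM, so it stood at 14.3% of control. DSC1, its partner, was at 1.27, 0.202 and 0 CPM in the monolayers, 1.87, 1.79 and 2.11 CPM in the silenced libraries and 130, 156 and 138 CPM in the ALI controls. Over the monolayer the log2 fold change was 1.74 (SE 0.65, adjusted p = 0.0661), and it stood at 1.36% of control. All silenced values exceeded all monolayer values, by little. Without monolayer library 1, which was the highest of the 3, DSC1 passed (log2 fold change 4.03, adjusted p = 0.00158), and it also passed with DESeq2 (0.00436) and limma-voom (0.0278). DSC1 was below the control in each of 13 alternative fits. The DSG1 call below the control was lost without silenced library 1 or 3 (adjusted p up to 0.078).

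Tight junction genes stood near the control level, with 10 of 16 tested higher than in the monolayer, none called lower than in the ALI control, and a median of 110% of it. Occludin (OCLN), a strand protein, rose from 0.213 ± 0.212 to 60.3 ± 27.1 CPM (SD, n = 3), 95.5% of control. Claudin 1 (CLDN1) rose by 5.62 on the log2 scale to 94.9%. Claudin 4 (CLDN4) was at 214, 127 and 116 CPM in the silenced libraries, all above the ALI controls at 77.3, 34.3 and 69.8 CPM, a difference that was not called (adjusted p = 0.114, edgeR). Claudin 17 (CLDN17), with 1 count in the monolayers and 1557 in the silenced libraries, was the one member under 50% of control (33.4%).

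Transcription factors of squamous differentiation were also near control, with 15 of 20 higher than in the monolayer, none called against the ALI control, and a median of 93.6% of it. Grainyhead-like 3 (GRHL3), an activator of barrier genes, was at 18.8, 2.93 and 1.92 CPM in the monolayers and 148, 102 and 120 CPM in the silenced libraries. The log2 fold change was 3.94 (adjusted p = 0.00302, edgeR) and its silenced mean 96.4% of control. ZNF750, an activator of terminal genes, rose by 4.51 to 62.0%, and OVOL1, a repressor of basal growth, by 5.71 to 122%. PRDM1 and KLF4 rose by 1.89 and 1.25, to 128% and 89.7%. HOPX, a small homeodomain protein of upper layers, was the lowest at 29.8%, not called against the control (adjusted p = 0.232).

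Factors of basal and esophageal identity were retained or raised. TP63, the master factor of stratified epithelium, was at 384, 352 and 355 CPM in the monolayers and 361, 287 and 358 CPM in the silenced libraries. Its log2 fold change over the monolayer was -0.12, not called in any of 17 alternative fits. The 95% interval of the separate difference of TP63 from the ALI control was -0.03 to 0.85. SOX2 and PAX9, factors of the foregut, rose by 2.04 (adjusted p = 0.00445) and 2.62 (adjusted p = 9.75e-05, edgeR). PITX1 and KLF5 rose by 2.48 and 2.30. All 10 members lay within 76.3 to 185% of control, and 6 of them passed against the monolayer.

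Of 14 tested Notch pathway genes, 4 were higher and 4 lower than in the monolayer, in silenced and in control ALI cells alike by count, beside 15.8% and 15.9% of all genes in the silenced cells. The target NRARP reached 15.5 ± 7.26 CPM (SD, n = 3; log2 fold change 4.40 over the monolayer), 42.8% of control, not called against it (adjusted p = 0.225, edgeR). The receptor NOTCH3 was at 169, 132 and 89.6 CPM in the silenced libraries, all above the monolayers, of which library 1 was the highest at 23.8 CPM (log2 fold change 3.87, adjusted p = 0.0153). The ligand JAG1 fell from 821 ± 69.1 to 162 ± 27.1 CPM (SD, n = 3; log2 fold change -2.34, adjusted p = 4.71e-05), and to 50.7% of control (adjusted p = 0.0652). NOTCH1 fell by 1.26 and DLL1 by 1.99, and JAG2 was the other lower member. Without silenced library 3 or monolayer library 1, 2 members were lower.

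Protease inhibitors of the barrier rose as a group, 18 of 20 tested, with none lower (median log2 fold change 5.88, ALI control 6.70). WFDC12, a whey acidic protein inhibitor, went from 0 monolayer counts to 300, 466 and 413 CPM (at least 4453-fold), 68.4% of control. SLPI, a mucosal inhibitor of neutrophil elastase, rose by 10.31 on the log2 scale to 81.9%, and elafin (PI3) by 9.82 to 28.6%. PI3 was at 2971, 5867 and 3833 CPM, below each of its ALI control libraries at 10900, 21778 and 11603 CPM, yet not called against them (adjusted p = 0.0756, edgeR). SPINK5, the inhibitor mutated in Netherton syndrome, was at 5.87 and 6.60 CPM in monolayers 2 and 3, with library 1 lower, and rose to 601, 1606 and 1012 CPM and stood at 19.2% (adjusted p = 0.0593 against the control). SPINK6, another Kazal-type kallikrein inhibitor, reached 28.3, 22.3 and 32.8 CPM, 159% of control. SPINK7, SERPINB3 (10.2%) and SERPINB12 (3.50%) were the members called below the control. SERPINB3 and its near-identical neighbour SERPINB4 may share reads.

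Proteases of the barrier rose in 22 of 23 members, none lower, and the median member stood at 111% of control. KLK5, a trypsin-like kallikrein that starts the desquamation cascade, was at 24.2, 10.3 and 11.8 CPM in the monolayers, 768, 788 and 774 CPM in the silenced libraries and 232, 301 and 320 CPM in the ALI controls. The silenced libraries were the highest and did not overlap either group. The log2 fold change was 5.64 over the monolayer (SE 0.38, adjusted p = 5.8e-06, edgeR) and 1.45 over the control (95% interval 0.75 to 2.15, adjusted p = 0.0658). KLK7, the chymotrypsin-like kallikrein it activates, was at 629, 740 and 841 CPM, against 394, 252 and 418 CPM in the ALI controls (adjusted p = 0.167) and 1.56, 0.607 and 0.958 CPM in the monolayers. KLK14 had 0 counts in the monolayers and reached 6.82, 1.79 and 3.98 CPM. PRSS3, a trypsinogen, was the member called below the control, at 19.6%, but not when silenced library 1 or 3, or control library 1 or 3, was left out (adjusted p up to 0.0998). KLK5 and KLK7 thus rose to higher means than in the ALI control and the inhibitor SPINK5 to a lower one. None of these 3 differences from the control was called, and the inhibitor SPINK6 went the other way, at 159% of control. Over the lists, 14 of 23 proteases and 11 of 20 inhibitors lay within 50 to 200% of control. Under 50% lay 6 proteases and 9 inhibitors, and over 200% lay 3 proteases and 0 inhibitors.

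Surface genes of squamous mucosa rose in 21 of 22 tested members (median log2 fold change 7.24, or 6.26 with 4 members at their bounds; ALI control 8.91), and 4 were lower than in the control. CRCT1 was at 244, 649 and 344 CPM, 92.8% of control, and the membrane mucin MUC16 at 91.2, 144 and 49.2 CPM, 153%. RHCG, an ammonia channel of esophageal epithelium, rose by 8.80 on the log2 scale to 292% of control, not called (adjusted p = 0.342, edgeR). MAL, a raft protein of upper esophageal layers, reached 1.68, 5.77 and 1.99 CPM, 11.2% of control, also not called (adjusted p = 0.0881). The 4 genes called below the control were CEACAM5, LY6D, LY6G6C and SLURP1. CEACAM5, an adhesion molecule, had 1 count in the monolayers and 290 in the silenced libraries, at 7.28% of control. LY6D stood at 18.5% and SLURP1 at 23.0%. CEACAM5 was below the control in each of 13 alternative fits. LY6D did not hold when control library 1 or 3 or silenced library 3 was left out (adjusted p up to 0.0691). LY6G6C failed on omitting control library 1, control library 3 or silenced library 1 (up to 0.0864), and SLURP1 on omitting silenced library 1, silenced library 3 or control library 1 (up to 0.0885).

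The list of antimicrobial and S100 genes gave 16 of 21 tested higher than in the monolayer and none lower, with the median member at 63.4% of control. S100A3, which is not on this list, was lower than in the monolayer (log2 fold change -2.68, adjusted p = 0.0017, edgeR). The beta-defensin DEFB1 (6.94%), the cobalamin binder TCN1 (17.8%) and BPIFC (23.2%) were called below the control. DEFB1 failed on omitting silenced library 3 (adjusted p = 0.0885), TCN1 on omitting silenced library 1, silenced library 3 or control library 1 (up to 0.131), and BPIFC on omitting any silenced library, control library 1 or control library 3 (up to 0.153). The calprotectin subunits S100A8 and S100A9 rose by 8.22 and 7.96 on the log2 scale, to 49.7% and 53.9% of the ALI control mean. S100A8 was at 9.77, 10.3 and 10.1 CPM in the monolayers and 2089, 3599 and 3343 CPM in the silenced libraries (adjusted p = 1.69e-06, edgeR). S100A7, an antimicrobial psoriasin that shares reads with near-identical copies, rose from 0.0708, 0.405 and 0.426 CPM to 341, 782 and 589 CPM. The basal-layer gene S100A2 was not called, at 1948 ± 720 against 3249 ± 319 CPM.

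**Figure D4:**
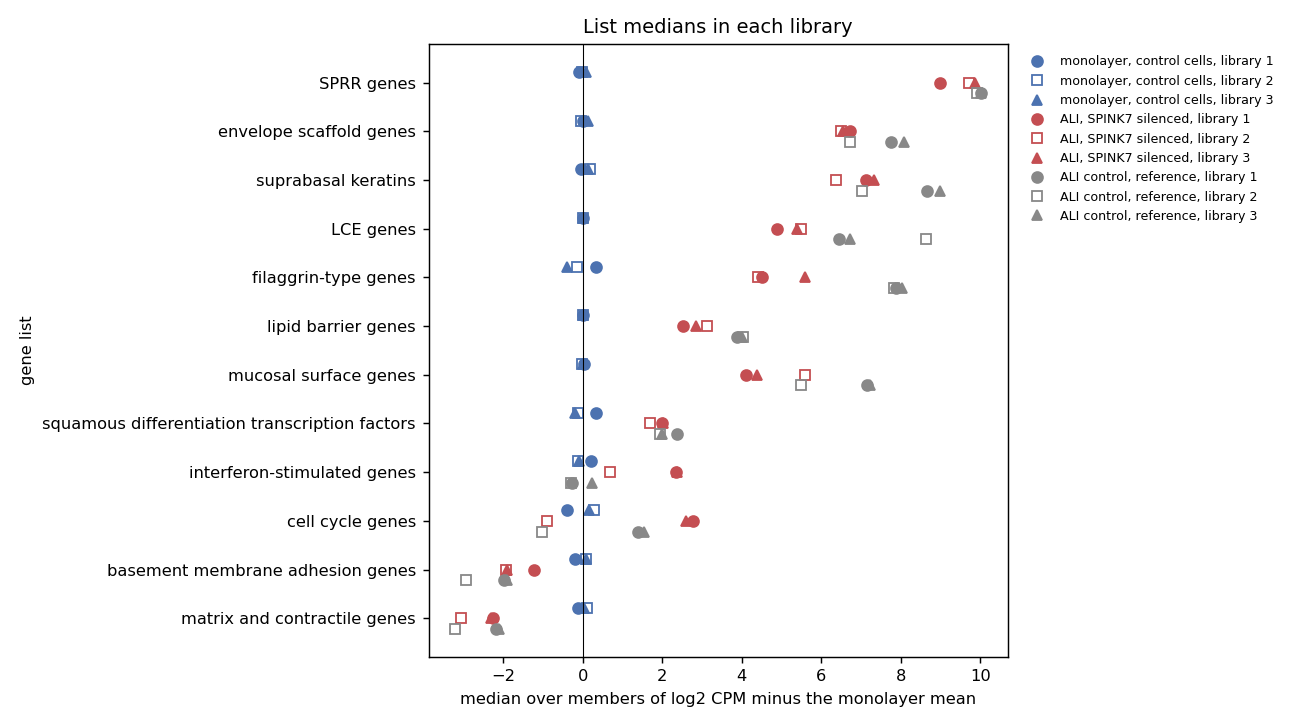
Median over list members of log2 CPM minus the monolayer mean, 1 marker per library, for 12 gene lists; open squares are libraries numbered 2. Silenced libraries lie together for SPRR (9.0 to 9.86) and filaggrin-type genes (4.41 to 5.6), while silenced library 2 lies apart for interferon-stimulated (0.68 against 2.34 and 2.38) and cell cycle genes (-0.9 against 2.77 and 2.59).

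Genes by which basal cells hold to the basement membrane fell. Of 15 genes for basement membrane adhesion, 12 were lower than in the monolayer and none higher (median log2 fold change -1.71, ALI control -2.44), and none was called against the ALI control, where the median member stood at 139%. The collagen receptor ITGA2 fell from 896 ± 323 to 123 ± 38.7 CPM (SD, n = 3; log2 fold change -2.86, adjusted p = 0.000283, edgeR). Laminin LAMA3 was at 5852, 8373 and 7961 CPM in the monolayers and 1942, 1708 and 1311 CPM in the silenced libraries, and fell by 2.16. COL17A1, a hemidesmosomal collagen, fell by 1.68 and COL7A1, of anchoring fibrils, by 2.49. ITGA6 was not called (log2 fold change -0.15, adjusted p = 0.701). Without silenced library 3, 7 of the 15 were lower.

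Matrix and contractile genes, which mark spreading cells in culture, gave 17 of 24 tested lower than in the monolayer and 1 higher. Fibronectin (FN1) fell from 43871, 51825 and 47383 CPM to 510, 577 and 316 CPM in the silenced libraries (log2 fold change -6.67, SE 0.46, adjusted p = 6.25e-06, edgeR), and the ALI controls were at 369 ± 122 CPM (SD, n = 3). Vimentin (VIM) fell by 3.79 and N-cadherin (CDH2) by 6.41 on the log2 scale. The median member stood at 97.9% of control. The member that rose was TAGLN, an actin-binding protein, by 1.49 (adjusted p = 0.0237). Without silenced library 1 or 3, or any monolayer library, no member of the list was higher. COL1A1, the tested fibroblast marker, was at 184, 51.3 and 48.2 CPM in the monolayers and 45.1, 20.3 and 28.2 CPM in the silenced libraries (adjusted p = 0.0742). Its summed list ran from 50.1 to 186 CPM and from 20.7 to 45.6 CPM, and its part in the fall of matrix genes was not tested.

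Cell cycle genes differed between the silenced libraries. Of 35, 34 had a positive log2 fold change (median 2.23, ALI control 1.10), but 6 passed, a share near the 15.8% of all genes called higher. MKI67, a marker of dividing cells, was at 3.89, 13.9 and 11.1 CPM in the monolayers and 106, 0.893 and 74.8 CPM in the silenced libraries (log2 fold change 2.66, adjusted p = 0.163, edgeR). Silenced libraries 1 and 3 lay above all monolayers and library 2 below them all. The ALI controls had the same shape, at 39.6, 0.757 and 42.1 CPM. Without silenced library 2, 31 of 35 were higher, MKI67 included (adjusted p = 0.0436). Without control library 2, 14 were. Without silenced library 1, 2 were, without monolayer library 1, 1 was, and without silenced library 3, monolayer library 2 or monolayer library 3, none was. The replication licensing factor CDC6 was at 17.1, 2.89 and 23.2 CPM, against 2.73 to 3.05 CPM in the monolayers (adjusted p = 0.0152). Of 11 inhibitors and D-type cyclins, CDKN1B, CDKN2B and CDKN2C were higher and CCND2 lower (by 0.91). Without silenced library 3 none of the list was higher, and without silenced library 2 or any one monolayer library 1 was. Ribosomal protein genes, listed for growth state and RNA quality, gave 0 calls among 23 against the monolayer (median -0.02). They were not level in the reference. Their median log2 CPM minus the monolayer mean was 1.07 in control library 2, against -0.26 and 0.16 in control libraries 1 and 3. The cause was not tested.

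Interferon-stimulated genes set the silenced cells apart from both reference states. Of 40, 33 were higher than in the monolayer and none lower (median log2 fold change 2.06), while the ALI control median against the same monolayers was -0.21, with 7 higher and 6 lower. Against the ALI control 12 of 40 were higher in the silenced cells, beside 0.226% of all genes, and the median member stood at 379% of the control. All 3 silenced libraries lay above all monolayers for 27 of the 40, against 28.0% of all genes. The 12 calls above the control depended on single libraries: 2 of the 12 held without silenced library 1, silenced library 3 or control library 3, 3 without control library 1, and 7, 6 and 5 without monolayer libraries 1, 2 and 3. Of the 12, 2 (BST2 and IFI6) held in every one of the 13 alternative fits.

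BST2 (tetherin), which holds budding virus at the cell surface, was at 4.11, 2.12 and 3.51 CPM in the monolayers, 55.4, 45.9 and 50.2 CPM in the silenced libraries and 1.34, 4.54 and 1.59 CPM in the ALI controls. The silenced libraries were all high and did not overlap either group. The log2 fold change was 3.94 over the monolayer (SE 0.42, adjusted p = 0.000111, edgeR) and 4.34 over the control (adjusted p = 0.00246). IFI6, an antiviral membrane protein, was at 448, 338 and 491 CPM, above 151 ± 12.1 CPM in the monolayers and 58.5 ± 31.7 CPM in the ALI controls (SD, n = 3). BST2 and IFI6 were above the control in each of 13 alternative fits. IFI27 stood at 419 ± 46.6 CPM, 354% of control, a call that did not hold when silenced library 1 or 3, or control library 3, was left out (adjusted p up to 0.0712). The RNA sensor IFIH1 was called above both groups (log2 fold change 2.16 over the monolayer), but its call against the control was lost without any single library except control library 2 or silenced library 2 (adjusted p up to 0.144).

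Silenced library 2 was lower for many other members. MX2, an antiviral GTPase, was at 205, 9.55 and 190 CPM, against 3.83 to 7.72 CPM in the monolayers (log2 fold change 4.69, adjusted p = 0.00402, edgeR) and 7.32 to 16.8 CPM in the ALI controls. RSAD2 (viperin) was at 211, 169 and 248 CPM, all above the monolayers at 1.91 to 2.73 CPM, and rose by 6.56. Neither MX2 nor RSAD2 was among the 15 genes called above both the monolayer and the ALI control. Interferon kappa (IFNK), a keratinocyte interferon, was at 14.2, 5.08 and 20.5 CPM in the silenced libraries and 4.32, 4.05 and 5.53 CPM in the monolayers (adjusted p = 0.0834). The ALI controls were at 1.07, 0 and 0.317 CPM, and the difference from them was called (adjusted p = 0.0209), though not when silenced library 1 or 3, or control library 3, was left out (adjusted p up to 0.107).

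Of the classical MHC class I heavy chains, which present peptides to T cells, HLA-B and HLA-C were not called against the monolayer and were called above the ALI controls. HLA-B was at 226, 376 and 345 CPM in the monolayers, 367, 495 and 322 CPM in the silenced libraries and 123, 142 and 143 CPM in the ALI controls. The first 2 groups overlapped (log2 fold change 0.32, adjusted p = 0.355, edgeR), and both lay above the control (adjusted p = 0.0237 for the silenced cells). HLA-C was at 156 ± 26.0, 194 ± 46.6 and 80.6 ± 11.9 CPM in the same order (SD, n = 3 each; adjusted p = 0.0411 against the control, edgeR). These calls above the control held in 8 and 5 of 13 alternative fits for HLA-B and HLA-C. Both genes lost the call on omitting silenced library 1 or 3, control library 1 or 3, or monolayer library 3, and HLA-C also on omitting monolayer library 1 or 2 or silenced library 2 (adjusted p up to 0.126 and 0.166). Reads of HLA genes can be split among near-identical copies.

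**Figure D5:**
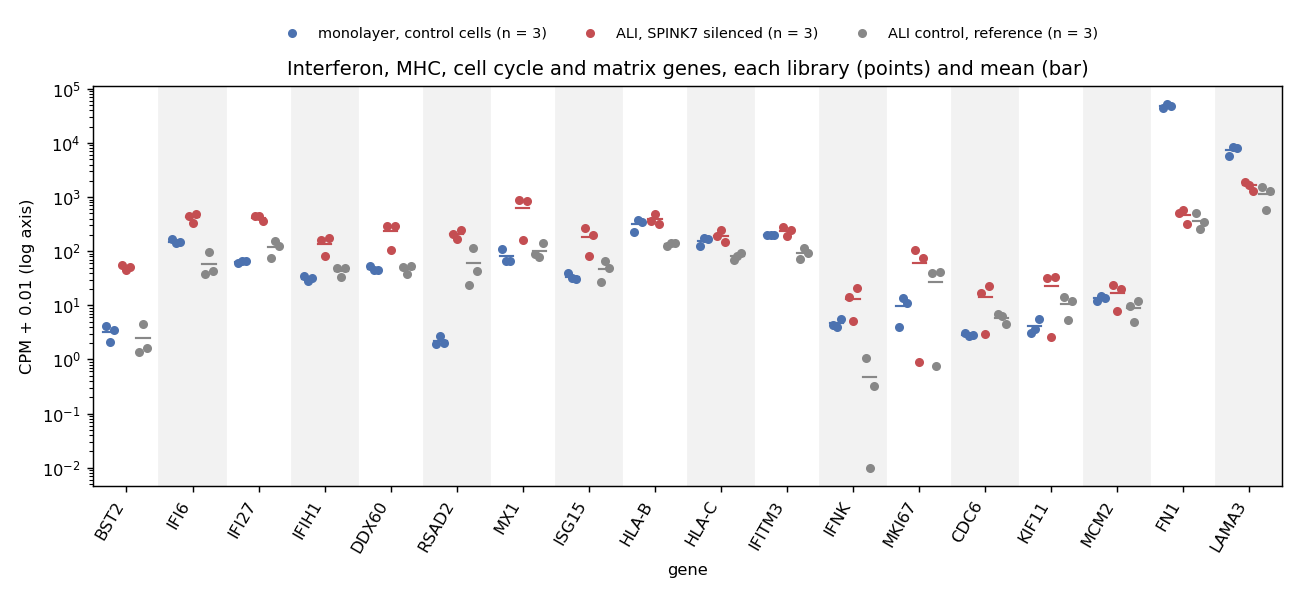
CPM + 0.01 on a log axis for interferon-stimulated, MHC class I, cell cycle and matrix genes, with 1 point per library and a bar at each group mean (n = 3 each). BST2 and IFI6 of silenced cells lie above both other groups, MKI67 of the ALI libraries numbered 2 lies below the monolayers, and FN1 of silenced cells lies at 316 to 577 CPM against 43871 to 51825 CPM in the monolayers.

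Of 20 tested epithelial cytokines and chemokines, 8 were higher than in the monolayer and CSF3 was lower (by 2.87 on the log2 scale, adjusted p = 0.0142, edgeR). The IL-36 cytokines IL36A, IL36B and IL36G, alarmins of squamous epithelium, and their receptor antagonist IL36RN were all higher. IL36G rose from 0.417 ± 0.177 to 32.4 ± 7.47 CPM (SD, n = 3), 50.2% of control, and IL36RN had 2 counts in the monolayers and 1240 in the silenced libraries (ratio 613, counting interval 169 to 5065). IL36RN was called below the control, at 18.4%, a call lost without any single library except control library 2 or silenced library 2 (adjusted p up to 0.182). The interleukin 1 receptor antagonist IL1RN rose by 6.03 (adjusted p = 3.3e-06) to 58.3%. IL1A and IL8 were not called (adjusted p = 0.111 and 0.078), and IL33 neither (0.178). The leukocyte marker CD68 rose by 1.66 (adjusted p = 0.00119), from 23.8 ± 7.37 to 74.9 ± 10.8 CPM, while PTPRC had 0 counts in both groups. The part of CD68 in the cytokine changes was not tested.

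The 16 genes not called against the monolayer but called below the ALI control included 3 members of the lists, DSC1, HAL and PLA2G4D, and C1orf68 of the chromosome 1 cluster. DSC1, HAL and C1orf68 were below the control in each of 13 alternative fits. C1orf68, a skin-specific gene of the chromosome 1 cluster, was at 0.0708, 0.405 and 0.639 CPM in the monolayers, 0.187, 0.137 and 0.234 CPM in the silenced libraries and 6.16, 5.55 and 5.29 CPM in the ALI controls. It was the one cluster gene of this class, and its log2 fold change over the monolayer was -0.90 (adjusted p = 0.361, edgeR). Silenced and monolayer libraries overlapped, and both lay below all ALI controls. On leaving out 1 library at a time, the count of 16 ran from 3 (without silenced library 1) to 34 (without silenced library 2). It was 4 without silenced library 3, 5 without control library 1 and 7 without control library 3. The DESeq2 Wald test gave 54, and the fit without both ALI libraries numbered 2 gave 85.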

How the data were processed

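RNA-seq was measured in 3 libraries of SPINK7-silenced ALI cultures, 3 of undifferentiated monolayers and 3 of control ALI cultures, which served as a reference level. The deposited files give, per transcript model, a read count and an RPKM made by the authors. The submitters' processing notes name STAR 2.4.2a, Bowtie, MACS2 and hg19, without roles; for the read counter, the annotation and strand use, nothing is given in the sources used here. RPKM entered no test.

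Counts were summed over models of one gene and chromosome. Total counts were 7641960 to 14009746 a library. Of 24672 genes, 12806 passed filterByExpr. One edgeR 4.0.16 quasi-likelihood model (TMM scaling, robust, R 4.3.3) was fitted to all 9 libraries, and p-values were Benjamini-Hochberg adjusted over all genes tested, with a threshold of 0.05. The scripts were tested on simulated data. Group levels are CPM on TMM-scaled sizes. A fold against a group at 0 counts sets that group at 3 counts in all and is written "at least". Exact Poisson counting intervals (95%) cover counting error only.

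The rule for named genes took a fixed list of differentiation genes, the 8 largest rises and 8 largest falls (groups not overlapping, the higher one averaging 5 CPM or more), up to 4 called members of each list by size of change and up to 3 that were called below the control but not against the monolayer, and the 2 most abundant where no member passed. Any other gene was named after its values were seen. The members and lists were chosen with earlier results of these data known. Alternatives were DESeq2 1.42.0 (test, and size factors), limma-voom 3.58.1, no low-count filter, a 6-library fit, a replicate block and fits without libraries.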

Additional observations from a re-analysis of the deposited data

How the results depend on the processing

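Of 136 genes named, 119 kept direction and side of the threshold in every alternative that gave them a value, which was all 17 for 115 of them and 16, all but the 6-library fit, for ASPRV1, HAL, HES5 and PMEL. CCNE2, CDC6, CDKN1B, CDKN2B, CDKN2C, KIF11, KRT14, KRT19, KRT8, NOTCH3 and NUSAP1 fell short of the threshold in at least 1 alternative, and COL1A1, DSC1, KRT5, MKI67 and PLA2G4D passed in at least 1. RPS6, never called, ran from -0.22 to 0.09 on the log2 scale and turned positive without silenced library 1 (0.02) and without monolayer library 1 (0.09). Where a result changed, the cause was not tested.

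Leaving out one library at a time gave 1284 to 2976 genes higher and 1276 to 2767 lower than in the monolayer, and 3 to 92 higher and 25 to 147 lower than in the ALI control. Genes above the monolayer ran from 21 to 99 below the control and 2 to 63 above it. Genes not called against the monolayer ran from 3 to 34 below the control and 1 to 26 above it, and genes below both from 1 to 28. The members higher ran from 0 to 31 for the cell cycle, 0 to 3 for CDK inhibitors and 0 to 1 for matrix genes. The members lower ran from 1 to 4 for CDK inhibitors, 0 to 2 each for cytokines, fibroblast markers and simple keratins, 0 to 1 each for desmosome genes, tight junction genes and squamous transcription factors, 2 to 4 for Notch genes and 7 to 13 for basement membrane adhesion.

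Without both ALI libraries numbered 2, 3372 genes were higher and 3087 lower than in the monolayer, and 280 higher and 428 lower than in the control. The classes then held 262 genes above the monolayer and below the control, 205 above both, 85 not called and below the control, 47 not called and above it, and 81 below both. Members higher were 33 for the cell cycle, 13 for cytokines, 11 for desmosomes and 2 for matrix genes. Members lower were 4 for CDK inhibitors and 1 each for lipid, desmosome, tight junction, squamous transcription factor and fibroblast lists.

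The DESeq2 Wald test gave 140 genes higher and 275 lower than the control, and 170, 68, 54, 51 and 51 genes in the same order of classes. It gave 15 cell cycle genes higher, and lower members 2 each for CDK inhibitors, cytokines and the epidermal differentiation complex and 1 each for desmosome, tight junction, antimicrobial and fibroblast lists. Limma-voom gave 1 cell cycle gene higher. The 6-library fit gave 1 tight junction gene and 2 cytokines lower, and no low-count filter 1 fibroblast marker lower. Monolayer libraries 2 and 3 differed least of all pairs in a group (chi-square over degrees of freedom 1.907, others 16.88 to 160.6). With these 2 summed, 1310 genes were higher, as were 0 cell cycle genes, 1 CDK inhibitor and 0 matrix genes, and 1 simple keratin was lower.

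Same-numbered silenced and monolayer libraries had correlations of deviations of -0.16, -0.19 and 0.13, and same-numbered silenced and control libraries 0.49, 0.58 and -0.01. Not every pair was over 0.1, and no label ties the numbers, so the numbers were not taken to pair the samples. Both ALI libraries numbered 2 stood apart together. With the replicate block, 1947 genes were higher and 2053 lower than in the monolayer and 51 higher than in the control. The block also gave 92 genes above the monolayer and below the control, 31 above both, and 1 lower member each for squamous transcription factors and fibroblast markers. Low counts limit what can be said of genes near 0 in the monolayers, where a fold is a bound.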

Other observations

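Several of the largest changes lay in genes of no list. C15orf48, which encodes a small mitochondrial protein, had 0 counts in the monolayers and 128 ± 88.4 CPM in the silenced libraries (SD, n = 3), at least 1579-fold higher, and stood at 96.1% of the ALI control mean. AZGP1, the secreted zinc-alpha-2-glycoprotein, also went from 0 counts to 85.1, 135 and 111 CPM, at least 1261-fold higher and 85.9% of control. The alcohol dehydrogenase ADH7 went from 0 counts to 37.6, 88.3 and 46.4 CPM, at least 686-fold higher and 44.2% of control. These genes were on in every silenced library and without a count in any monolayer.

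Among the falls, the aminopeptidase ANPEP went from 27.0, 59.8 and 54.5 CPM in the monolayers to 0.841, 0.206 and 0.351 CPM in the silenced libraries (log2 fold change -6.66, adjusted p = 1.49e-05, edgeR). The glypican GPC4 went from 24.5, 18.4 and 20.5 CPM to 0.0934, 0.344 and 0 CPM, below the 1.61, 1.89 and 1.16 CPM of the ALI controls as well. Silenced libraries were below all libraries of both other groups for GPC4. Its call below the control held in 5 of 13 alternative fits. It was lost without any single library except silenced library 2 (adjusted p up to 0.172, edgeR).

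Of the 15 genes called below both the monolayer and the ALI control, CPPED1, a phosphatase, was called in each of 13 alternative fits of the ALI comparison. It was at 27.1, 33.5 and 28.4 CPM in the monolayers, 7.38, 10.5 and 6.20 CPM in the silenced libraries and 48.4, 33.0 and 48.7 CPM in the ALI controls, so the silenced libraries were lowest with no overlap. HEXA, a lysosomal hexosaminidase subunit, was at 37.7 ± 1.35, 8.84 ± 2.56 and 41.5 ± 14.3 CPM in the same order (SD, n = 3 each), a call not kept without silenced library 1 or silenced library 3 (adjusted p up to 0.0691). In the other direction, the retinaldehyde dehydrogenase ALDH1A3 was at 2635, 2531 and 3043 CPM in the silenced libraries against 378 to 809 CPM in the monolayers and 552 to 959 CPM in the ALI controls. Its call above the ALI control (adjusted p = 0.0367, edgeR) held in 7 of 13 alternative fits and was lost on omitting silenced library 1 or 3, control library 1 or 3, or monolayer library 2 or 3 (up to 0.146). CPPED1, HEXA and ALDH1A3 were picked after their values were seen.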
